A study of Homo sapiens and Mus musculus with 36 samples.

Results

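The genes described here carry fatty acids into liver mitochondria and oxidise them, or are known targets of the nuclear receptor PPAR-alpha. On the human arrays they were CPT1A, CPT2, ACADM, ACADVL, HADHA, HADHB, EHHADH and CYP4A11. On the mouse arrays the same symbols were taken in mouse spelling, with Cyp4a14 and Cyp4a10 in the place of CYP4A11. They were chosen by symbol, with earlier results of these data known. All 8 human genes had a probe set annotated to them alone, among 19775 genes measured that way. Of the 9 mouse genes, 8 had one among 18193 genes, and Cyp4a10 was covered only by a probe set that the annotation gives to both Cyp4a31 and Cyp4a10.

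The human arrays held HepaRG cells, an established hepatoma line that yields hepatocyte-like and biliary-like cells, bought as cryopreserved differentiated cells and treated from day 7 after seeding. Control cells had received the vehicle for 72 h. For the same time, other cells had received a 50-fold concentrate of a bile acid mixture, called the mixture from here on, or 1 of 3 drugs known to cause cholestasis: 60 µM atazanavir, 20 µM cyclosporin A or 30 µM nefazodone. A further 3 groups had received a drug and the mixture together. Each of these 8 groups had 3 arrays. The series' design text says that the experiments used 3 batches of HepaRG cells, and the labels do not tie a replicate number to a batch, so every result in cells concerns a single line. The mouse arrays held livers of Sv129 mice 6 weeks after surgery, 6 with the common bile duct ligated (CBDL) and 6 sham-operated, in which the duct had been isolated and not tied. The mice carried no engineered allele named in the labels, and their age was not given in the sources used here.

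Fatty acids are activated to acyl-CoA in the cytosol and cross the inner mitochondrial membrane as carnitine esters, which CPT1A makes on the outer membrane and CPT2 turns back into acyl-CoA inside. Acyl-CoA dehydrogenases of graded chain length then open each round of beta-oxidation, and the trifunctional protein, built of HADHA and HADHB, completes the round on long chains. Peroxisomes run a parallel pathway in which EHHADH takes part, and CYP4A enzymes start omega-oxidation in the endoplasmic reticulum. In liver, PPAR-alpha is activated by fatty acids and raises transcription of many of these genes on fasting, binding DNA with RXR at direct repeats of a hexamer.

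Because HADHA and HADHB code for the subunits of one protein and their RNAs are compared throughout, their promoters are shown first. RefSeq's table for GRCh38.p14 gave a window from 250 bases before to 50 bases after the transcription start for 6 of the 8 human genes. HADHA lies on the minus strand with its window at chr2:26244583-26244882, and HADHB lies on the plus strand with its window at chr2:26244689-26244988. The start sites stood 307 bases apart and the genes ran away from each other, so both windows held the same 194 bases, which are in capitals in the sequences, each written 5′ to 3′ along its own gene.
HADHA: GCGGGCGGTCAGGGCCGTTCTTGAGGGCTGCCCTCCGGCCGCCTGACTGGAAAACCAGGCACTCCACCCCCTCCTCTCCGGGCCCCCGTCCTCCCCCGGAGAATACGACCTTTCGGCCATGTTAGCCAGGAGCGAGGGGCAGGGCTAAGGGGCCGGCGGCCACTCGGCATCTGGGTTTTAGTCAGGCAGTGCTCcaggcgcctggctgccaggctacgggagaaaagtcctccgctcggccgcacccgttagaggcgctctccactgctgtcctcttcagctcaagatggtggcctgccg
HADHB: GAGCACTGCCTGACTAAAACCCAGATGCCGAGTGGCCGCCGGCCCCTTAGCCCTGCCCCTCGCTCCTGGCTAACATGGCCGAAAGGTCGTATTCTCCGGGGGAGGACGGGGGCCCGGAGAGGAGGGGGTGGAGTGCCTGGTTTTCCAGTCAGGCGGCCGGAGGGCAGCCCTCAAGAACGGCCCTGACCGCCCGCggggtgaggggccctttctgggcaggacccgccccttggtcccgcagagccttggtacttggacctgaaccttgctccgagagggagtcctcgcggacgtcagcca
The shared stretch, chr2:26244689-26244882, was 68.6% G or C. The hexamer AGGTCA, searched on both strands, was in none of the 7 windows of these genes (ACADVL had 2), against 13.8% of all 35116 windows of that length. The direct repeat AGGTCANAGGTCA was in none of them either, against 0.0228% of all windows. EHHADH and CYP4A11 had no window and were not searched, and the windows of HADHA and HADHB are in large part the same bases. In the wider pathway list used below, 3 of 44 genes with a window held the hexamer: ACSL5, CREB3L3 and FABP1. Sites elsewhere in the genes, or with other letters, were not examined.

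Levels are given as deposited, in log2 units, so that a difference of 1 is a doubling, and levels of different probe sets are not compared. A change passed the test where limma's adjusted p (Benjamini-Hochberg over all genes of a comparison) was under 0.05. Changes carry limma's standard error (SE), from 3 arrays a group in HepaRG and 6 in mouse. Within groups, arrays correlated at 0.9908 to 0.9976 in HepaRG and at 0.9805 to 0.9967 in mouse. The mean of 8 hepatocyte markers such as ALB and APOB was 12.7 to 12.9 on the control arrays, 12.1 to 12.4 with the mixture, 10.3 to 10.7 with atazanavir, 11.4 to 12.1 with cyclosporin A and 10.7 to 11.4 with nefazodone. The mean of 6 biliary markers, 2 of them among the dimmest 1 in 3 genes, was 6.24 to 6.41 on control arrays, 6.52 to 6.59 with the mixture, 6.15 to 6.22 with atazanavir, 6.26 to 6.43 with cyclosporin A and 6.70 to 6.80 with nefazodone. Of the 6, 3 rose and 2 fell with cyclosporin A, 3 rose and 1 fell with nefazodone, 1 fell with atazanavir and 1 rose with the mixture. The loss of hepatocyte marker RNA thus ran alongside the falls described below, its part in them was not tested, and in bulk RNA fewer hepatocyte-like cells and less RNA per cell cannot be told apart. The gap between the 3′ and 5′ GAPDH control probe sets, a sign of RNA integrity, was 0.48 to 0.56 on control arrays and between 0.45 and 0.70 on all others, and its part was not tested either.

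In HepaRG cells each drug lowered 4 to 7 of the 8 genes, and CPT1A rose with atazanavir and nefazodone. EHHADH fell furthest on the gene-level probe sets, by 2.10 to 2.78 log2 units with a drug. With atazanavir 1 of the 8 genes rose and 5 fell, where 35.4% of all genes passed the test (22.2% higher, 13.2% lower). With cyclosporin A 7 fell and none rose, where 40.8% of all genes passed (22.2% higher, 18.5% lower). With nefazodone 1 rose and 4 fell, where 45.5% passed (25% higher, 20.6% lower). The mixture alone lowered 2 of the 8, where 10.1% passed (6.78% higher, 3.37% lower). The median change of the 8 genes was -0.44 with atazanavir, -0.76 with cyclosporin A, -0.47 with nefazodone and -0.14 with the mixture, beside medians of 0.02, 0.04, 0.01 and 0.01 over all genes. The 4 comparisons share the control arrays, so that they are not independent of each other. Setting every array to the same median changed the share of rises among the mixture's passing genes from 66.8% to 47.6%, and raised all nefazodone changes by 0.104.

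**Figure D1:**
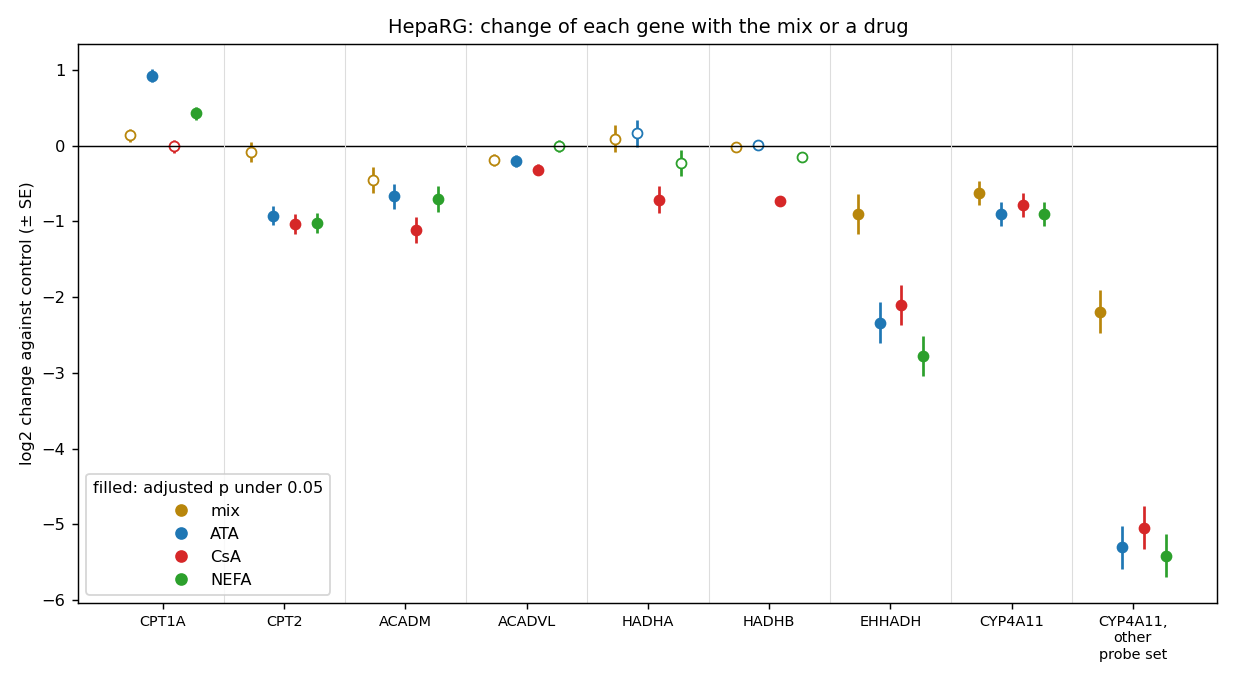
Log2 change against control, with its SE, of the 8 genes in HepaRG cells given the bile acid mixture (mix), atazanavir (ATA), cyclosporin A (CsA) or nefazodone (NEFA), with a second CYP4A11 probe set at the right; filled points passed the test. CPT1A is the gene with points clearly above 0, at 0.92 with atazanavir and 0.43 with nefazodone, and the second CYP4A11 probe set reads -5.41 with nefazodone, where its level was near background.

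CPT1A, the enzyme that commits long-chain fatty acids to mitochondrial entry, was at 8.76, 8.85 and 8.76 on the 3 control arrays and at 8.87, 8.95 and 8.95 with the mixture. It was at 9.76, 9.73 and 9.64 with atazanavir, at 8.74, 8.76 and 8.84 with cyclosporin A, and at 9.15, 9.20 and 9.30 with nefazodone. All atazanavir and nefazodone arrays lay above every control array, the mixture arrays lay just above the controls, and the cyclosporin A arrays overlapped them. The rise was 0.92 with atazanavir (SE 0.09, 1.89-fold, limma adjusted p = 2.72e-08) and 0.43 with nefazodone (SE 0.09, 1.34-fold, adjusted p = 0.000237). The differences with the mixture (0.13, 95% interval -0.05 to 0.31) and with cyclosporin A (-0.01, interval -0.19 to 0.17) did not pass. CPT1A has 3 other probe sets, which were compared after the data had been seen, in a fit of all probe sets, of which 24.1% passed with atazanavir, 29.9% with cyclosporin A and 35.1% with nefazodone. They gave 0.87 to 0.95 with atazanavir. With nefazodone they disagreed in size, at 1.69, 1.24 and 0.33, the last with an adjusted p over probe sets of 0.0833. One of them fell with cyclosporin A, by 0.39 (adjusted p = 0.0432), from a mean of 4.33 to 3.94. That is near background, as the dimmest 1 in 3 genes had mean levels up to 4.27.

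CPT2, the inner-membrane partner of CPT1A, moved the other way. Control arrays read 8.61, 8.64 and 8.84 and mixture arrays 8.47, 8.55 and 8.81, which overlapped. Atazanavir gave 7.77, 7.70 and 7.85, cyclosporin A 7.89, 7.27 and 7.82, and nefazodone 7.63, 7.72 and 7.67. Every drug array was below every control array, and the lowest was cyclosporin A replicate 2. CPT2 fell by 0.92 with atazanavir (SE 0.13, 1.90-fold lower, limma adjusted p = 7.84e-06), by 1.04 with cyclosporin A (1.21e-06) and by 1.02 with nefazodone (8.02e-07). Its other probe set fell by 0.92, 0.73 and 1.02 in the same order. Atazanavir and nefazodone therefore raised the RNA of the outer carnitine palmitoyltransferase and lowered that of the inner one, each against the same 3 control arrays.

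ACADM is the medium-chain acyl-CoA dehydrogenase. It was at 10.95, 11.05 and 11.15 in controls, at 10.40, 10.57 and 10.80 with the mixture, and at 10.33, 10.28 and 10.53 with atazanavir. It was at 10.21, 9.32 and 10.27 with cyclosporin A and at 10.12, 10.34 and 10.57 with nefazodone, so that no treated array reached the lowest control. ACADM fell by 0.67 with atazanavir (SE 0.17, adjusted p = 0.00318), by 1.12 with cyclosporin A (1.26e-05) and by 0.71 with nefazodone (0.00139). With the mixture the difference was -0.46 (SE 0.17, adjusted p = 0.0967). With the replicate number as a block, which paired these arrays, it passed, at an adjusted p of 0.0485.

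ACADVL, which acts on very long chains, moved least of the 8 genes, with group means spanning 0.48 over the 8 groups. Control arrays read 10.14, 10.12 and 10.07, and nefazodone arrays, at 10.08, 10.04 and 10.18, overlapped them. Cyclosporin A arrays, at 9.72, 9.83 and 9.82, were all lower, and ACADVL fell there by 0.32 (SE 0.08, 1.25-fold lower, limma adjusted p = 0.00179). Atazanavir arrays were at 9.99, 9.95 and 9.76, a difference of -0.21 (SE 0.08, adjusted p = 0.0408). That call was lost without atazanavir replicate 2 (0.0526) or 3 (0.223) and without control replicate 1 (0.111), 2 (0.0889) or 3 (0.0568), and in a fit of those groups alone (0.104).

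The subunits of the trifunctional protein fell with cyclosporin A. HADHA, the subunit with enoyl-CoA hydratase and hydroxyacyl-CoA dehydrogenase activity, was at 9.94, 9.79 and 9.61 in controls and at 9.25, 9.34 and 8.61 with cyclosporin A. HADHB, the thiolase subunit, was at 11.61, 11.50 and 11.53 in controls and at 10.78, 10.74 and 10.94 with cyclosporin A. Neither gene's groups overlapped, and cyclosporin A replicate 3 was low for HADHA and the highest of the 3 for HADHB. HADHA fell by 0.71 (SE 0.17, 1.64-fold lower, limma adjusted p = 0.00198) and HADHB by 0.73 (SE 0.06, 1.66-fold lower, adjusted p = 6.01e-09). The other HADHA probe sets fell by 0.46 and 0.45.

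With the other treatments the trifunctional genes did not pass the test. Atazanavir arrays read 9.88 or more for HADHA and 11.61, 11.54 and 11.50 for HADHB, which overlapped the controls in both genes. The differences were 0.16 (95% interval -0.20 to 0.52) and 0.00 (interval -0.13 to 0.14). With nefazodone HADHA was at 9.47, 9.47 and 9.71 (-0.23, adjusted p = 0.331) and HADHB at 11.35, 11.42 and 11.42 (-0.15, SE 0.06, adjusted p = 0.0634), the latter below every control. With the mixture HADHA was at 9.80, 9.92 and 9.89 and HADHB at 11.51, 11.57 and 11.50, with differences of 0.09 and -0.02.

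EHHADH, the bifunctional enzyme of peroxisomal beta-oxidation and a textbook PPAR-alpha target, fell under all 4 treatments. Control arrays were at 10.48, 10.54 and 10.90 and mixture arrays at 9.45, 9.60 and 10.15. Atazanavir gave 8.24, 7.96 and 8.70, cyclosporin A 8.79, 7.82 and 8.99, and nefazodone 7.52, 7.64 and 8.41. No treated array reached a control array, and every drug array was below every mixture array. The falls were 2.34 with atazanavir (SE 0.27, 5.05-fold lower, limma adjusted p = 3.96e-07), 2.10 with cyclosporin A (4.30-fold lower, 1.1e-06) and 2.78 with nefazodone (6.87-fold lower, 9.31e-09). With the mixture EHHADH fell by 0.91 (SE 0.27, 1.87-fold lower, adjusted p = 0.0318). This last call was lost without control replicate 2 (0.0617) or 3 (0.142), without mixture replicate 1 (0.138) or 2 (0.112), and with a trended, robust prior (0.0535).

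CYP4A11, a fatty acid omega-hydroxylase, also fell under all 4 treatments, by amounts that depended on the probe set. The probe set with the highest mean was at 5.89, 6.26 and 6.49 in controls and at 5.47, 5.59 and 5.70 with the mixture. It was at 5.27, 5.27 and 5.39 with atazanavir, 5.43, 5.18 and 5.66 with cyclosporin A, and 5.36, 5.15 and 5.43 with nefazodone. It fell by 0.63 with the mixture (SE 0.16, limma adjusted p = 0.0131), by 0.90 with atazanavir (9.55e-05), by 0.79 with cyclosporin A (0.000323) and by 0.90 with nefazodone (5.33e-05). The mixture's call was lost without control replicate 3 (0.0971) or mixture replicate 1 (0.0617).

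The other CYP4A11 probe set had a far wider range. It was at 8.51, 8.09 and 9.24 in controls and at 6.38, 5.60 and 7.28 with the mixture, whose arrays differed among themselves by more than 1 unit. With a drug it was at 3.47, 3.08 and 3.40 (atazanavir), 3.42, 3.40 and 3.90 (cyclosporin A) and 3.22, 3.01 and 3.36 (nefazodone), all within the range of the dimmest 1 in 3 genes, whose mean levels reached 4.27. Its fall was 2.19 with the mixture (SE 0.28, 4.57-fold lower, limma adjusted p over 54613 probe sets = 2.42e-05), where 5.52% of probe sets passed. With each drug it was at least 20.2-fold lower than in controls, the control mean set against 4.27, and no order of the drugs can be read from it. Of 3 further probe sets annotated to both CYP4A22 and CYP4A11, the brightest in controls, at a mean of 5.48, had group means of 4.07 or less under every treatment, below that same bound. Any of these probe sets may read RNA of CYP4A22, a close relative.

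**Figure D2:**
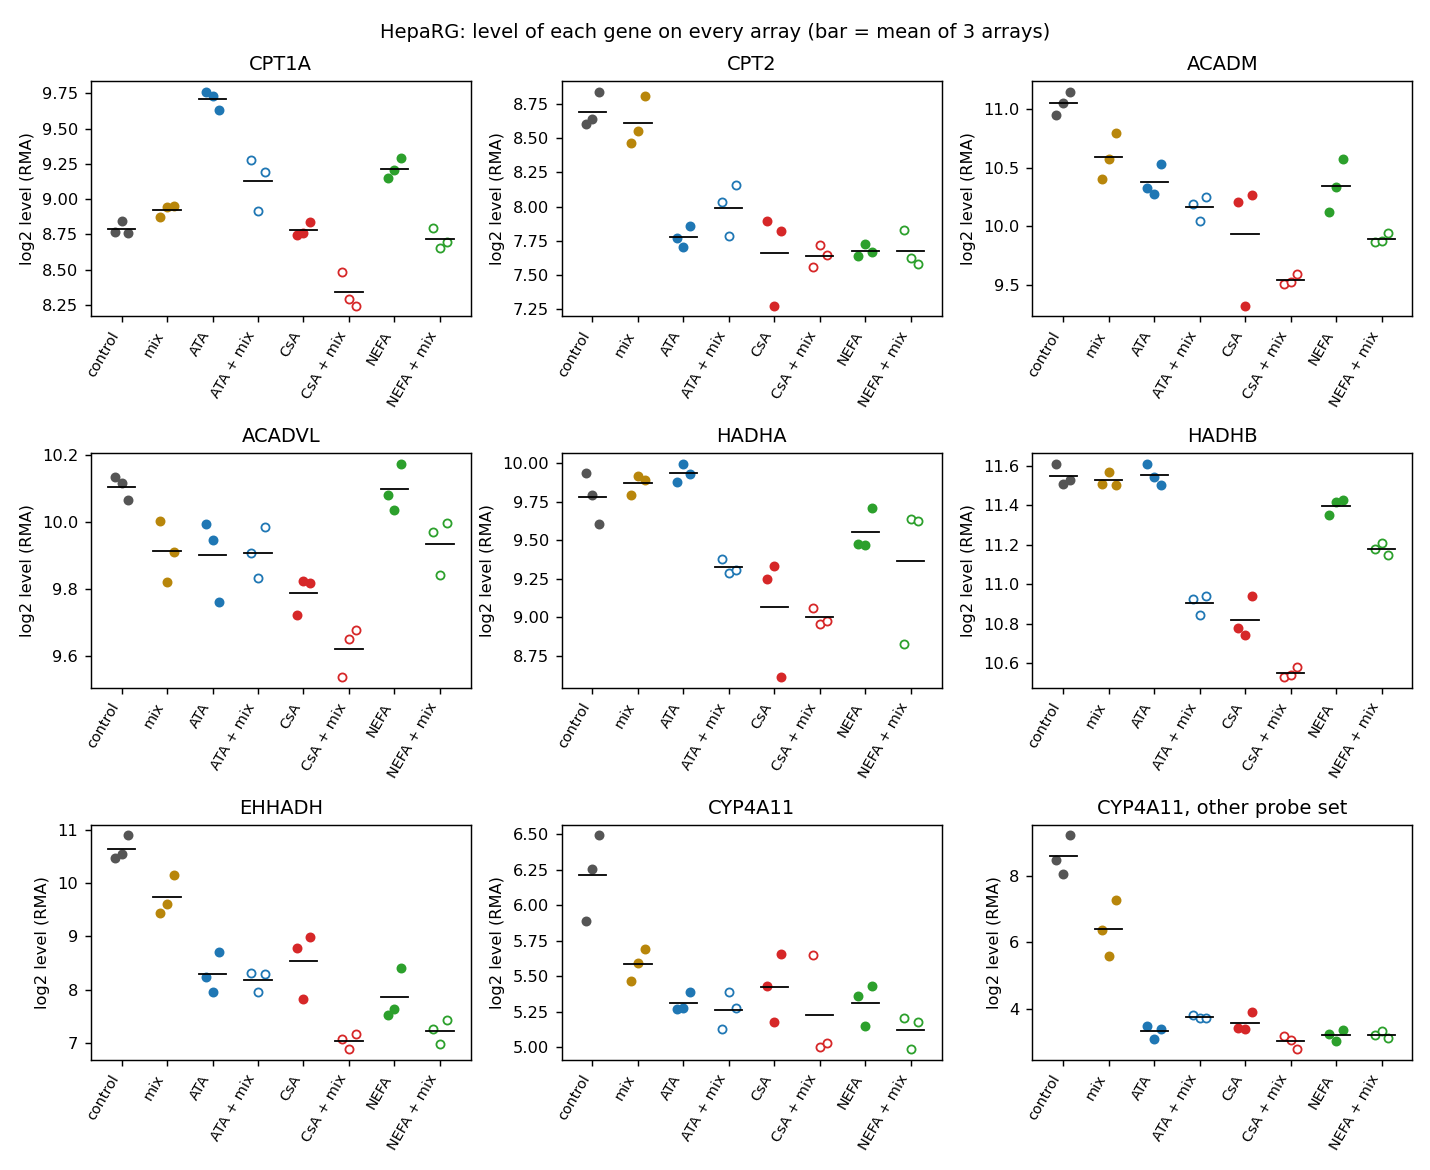
Log2 level of each gene on each of the 24 HepaRG arrays, by group, with the mean of 3 arrays as a bar; open points are groups that received a drug with the mixture, and each panel has its own axis. EHHADH steps down from 10.6 in controls to 9.73 with the mixture and to 7.05 with cyclosporin A and the mixture, whereas HADHB with atazanavir stays at the control level of 11.5 until the mixture is added.

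Over all 8 groups the genes ordered differently. CPT1A was highest with atazanavir (mean 9.71 ± 0.07, SD, n = 3) and then with nefazodone (9.22 ± 0.07), whose arrays overlapped those of atazanavir with the mixture (9.13 ± 0.19). It was lowest with cyclosporin A and the mixture (8.34 ± 0.13), below every array of the other groups. CPT2 separated into control and mixture arrays, which overlapped, and the 6 groups with a drug, in which each group overlapped the next in order, from 7.99 ± 0.19 with atazanavir and the mixture to 7.64 ± 0.08 with cyclosporin A and the mixture. EHHADH had the widest span of group means, 3.59, and was lowest with cyclosporin A and the mixture (7.05 ± 0.15), which overlapped nefazodone with the mixture (7.22 ± 0.22). ACADM spanned 1.51, CPT1A 1.37, CYP4A11 1.09, CPT2 1.06, HADHB 1.00 and HADHA 0.94 units.

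On its brightest probe set CPT1A fell on adding the mixture to each of the 3 drugs, and did not pass with the mixture alone. CPT1A was at 9.28, 8.91 and 9.19 with atazanavir and the mixture, at 8.49, 8.29 and 8.25 with cyclosporin A and the mixture, and at 8.79, 8.66 and 8.69 with nefazodone and the mixture. In each case all arrays with the mixture were below all arrays with that drug alone. The falls were 0.58 with atazanavir (SE 0.09, limma adjusted p = 5.03e-05), 0.44 with cyclosporin A (0.000299) and 0.50 with nefazodone (0.000293). The interaction, the mixture's effect with a drug minus its effect without one, was -0.71 for atazanavir (95% interval -0.97 to -0.46, adjusted p = 0.000516), -0.57 for cyclosporin A (interval -0.82 to -0.32, 0.00122) and -0.63 for nefazodone (interval -0.89 to -0.38, 0.00135). The 3 interactions share the control and mixture arrays.

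CPT1A's other probe sets bore on this unequally, in interactions where 6.41% (atazanavir), 17.4% (cyclosporin A) and 6.38% (nefazodone) of all probe sets passed. For atazanavir they gave interactions of -0.55 (adjusted p over probe sets 0.0236), -1.15 (0.00096) and -0.57 (0.061). For nefazodone they gave -0.86 (0.000608), -0.66 (0.0536) and -0.79 (0.00824). For cyclosporin A they gave -0.29, -0.31 and -0.41, and none of the 3 passed. On adding the mixture to atazanavir, where 12.2% of all probe sets passed, they gave -0.26 (adjusted p over probe sets 0.115), -0.94 (8.48e-05) and -0.25 (0.241). On adding it to nefazodone, where 9.17% passed, they gave -0.57 (0.000613), -0.44 (0.0538) and -0.47 (0.019). On adding it to cyclosporin A, where 27.2% passed, they gave 0.00, -0.10 and -0.09, and none passed. The fall of CPT1A therefore passed on 2 of 4 probe sets with atazanavir, 3 of 4 with nefazodone and 1 of 4 with cyclosporin A. The probe set that gave -0.94 with atazanavir was dim. Its mean was 5.19 with atazanavir and 4.26 with atazanavir and the mixture, the latter under the 4.27 that bounds the dimmest 1 in 3 genes.

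HADHB, level with controls under atazanavir, fell on adding the mixture to 10.93, 10.85 and 10.94. That was a fall of 0.65 (SE 0.06, 1.57-fold lower, limma adjusted p = 4.73e-07), with an interaction of -0.63 (95% interval -0.81 to -0.44, adjusted p = 0.00012). HADHA fell alongside it to 9.38, 9.29 and 9.31, by 0.61 (SE 0.17, 1.53-fold lower, adjusted p = 0.0153), and its arrays did not overlap those with atazanavir alone. HADHA's call was lost without atazanavir replicate 2 (0.0558) or replicate 2 of atazanavir with the mixture (0.0509). Its interaction, -0.70 (interval -1.22 to -0.19), had an adjusted p of 0.0674, and the other HADHA probe sets gave -0.47 (adjusted p over probe sets 0.0107) and -0.53 (0.00721).

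With the other drugs HADHB moved less. It was at 10.53, 10.54 and 10.58 with cyclosporin A and the mixture, 0.27 below cyclosporin A alone (SE 0.06, limma adjusted p = 0.00187). It was at 11.18, 11.21 and 11.15 with nefazodone and the mixture, 0.22 below nefazodone alone (adjusted p = 0.022). The interaction passed for cyclosporin A (-0.25, adjusted p = 0.0482, or 0.056 with the replicate block) and not for nefazodone (-0.20, 0.185). The cyclosporin A interaction of HADHB was lost on leaving out any 1 of 9 of its 12 arrays, with adjusted p from 0.0577 to 0.142. With arrays set to one median, the fall on adding the mixture to cyclosporin A was -0.11 (adjusted p = 0.148). That setting raised every cyclosporin A interaction by 0.214, beside the -0.25 of HADHB. The nefazodone call was lost without nefazodone replicate 2 (0.0651) or 3 (0.0856), or without replicate 1 (0.0612) or 3 (0.0754) of nefazodone with the mixture. HADHA was at 9.06, 8.96 and 8.98 with cyclosporin A and the mixture and at 8.82, 9.64 and 9.63 with nefazodone and the mixture, and neither difference passed.

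EHHADH was at 7.08, 6.89 and 7.17 with cyclosporin A and the mixture, below every array with cyclosporin A alone. That was a further fall of 1.49 (SE 0.27, 2.81-fold lower, limma adjusted p = 0.000112), and the interaction of -0.58 did not pass (95% interval -1.36 to 0.20, adjusted p = 0.297). With nefazodone and the mixture it was at 7.26, 6.99 and 7.43, a difference of -0.63 from nefazodone alone (adjusted p = 0.125). With atazanavir and the mixture it was at 8.31, 7.95 and 8.29, overlapping the arrays of atazanavir alone, and the interaction was 0.79 (adjusted p = 0.202, and 0.0336 with the replicate block). The replicate numbers paired the nefazodone arrays, and with them as a block EHHADH (adjusted p = 0.0127) and ACADM (-0.45, adjusted p = 0.0404) also passed there, making 4 genes in the place of 2.

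The remaining 4 genes did not pass on adding the mixture to a drug without the replicate block. ACADM differed by -0.22 with atazanavir (limma adjusted p = 0.455) and by -0.39 with cyclosporin A (0.0806, and 0.0428 with the replicate block). ACADVL differed by 0.01, -0.17 and -0.16 with atazanavir, cyclosporin A and nefazodone, and CPT2 by 0.22, -0.02 and 0.00. CYP4A11 differed by -0.05, -0.19 and -0.19 on its brightest probe set and by 0.43 with atazanavir on the second, which lay near background.

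On adding the mixture, 3 of the 8 genes fell with atazanavir, where 19.2% of all genes passed (8.95% higher, 10.3% lower), and 3 with cyclosporin A, where 36.8% passed (18.4% each way). With nefazodone 2 fell, where 15.5% passed (7.55% higher, 7.92% lower), and none of the 8 rose with any drug. In the interactions 2 of the 8 genes were lower for atazanavir, where 12.4% of all genes passed (7.29% lower), 2 for cyclosporin A, where 25.9% passed (15% lower), and 1 for nefazodone, where 11.9% passed (7.31% lower). On adding the mixture to atazanavir 7 of 8 hepatocyte markers rose and their mean reached 11.3 to 11.6, and 4 of 6 biliary markers rose, to a mean of 6.68 to 6.86. On adding it to cyclosporin A all 8 hepatocyte markers fell, to 9.29 to 9.78, and 1 biliary marker rose and 2 fell (5.96 to 6.04). On adding it to nefazodone 1 of 8 hepatocyte markers fell (10.6 to 11.1), and 1 biliary marker rose and 1 fell (6.60 to 6.73). The falls of HADHA, HADHB and CPT1A thus went with higher hepatocyte and biliary markers in the case of atazanavir, and those of CPT1A, HADHB and EHHADH with lower hepatocyte markers in the case of cyclosporin A. The part of either marker list was not tested. Setting arrays to one median raised the changes on adding the mixture to cyclosporin A by 0.161 and that drug's interactions by 0.214. The share of rises among passing genes went from 50.0% to 72.2% in the first and from 42.2% to 72.4% in the second, and from 38.4% to 59.4% in the nefazodone interaction.

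**Figure D3:**
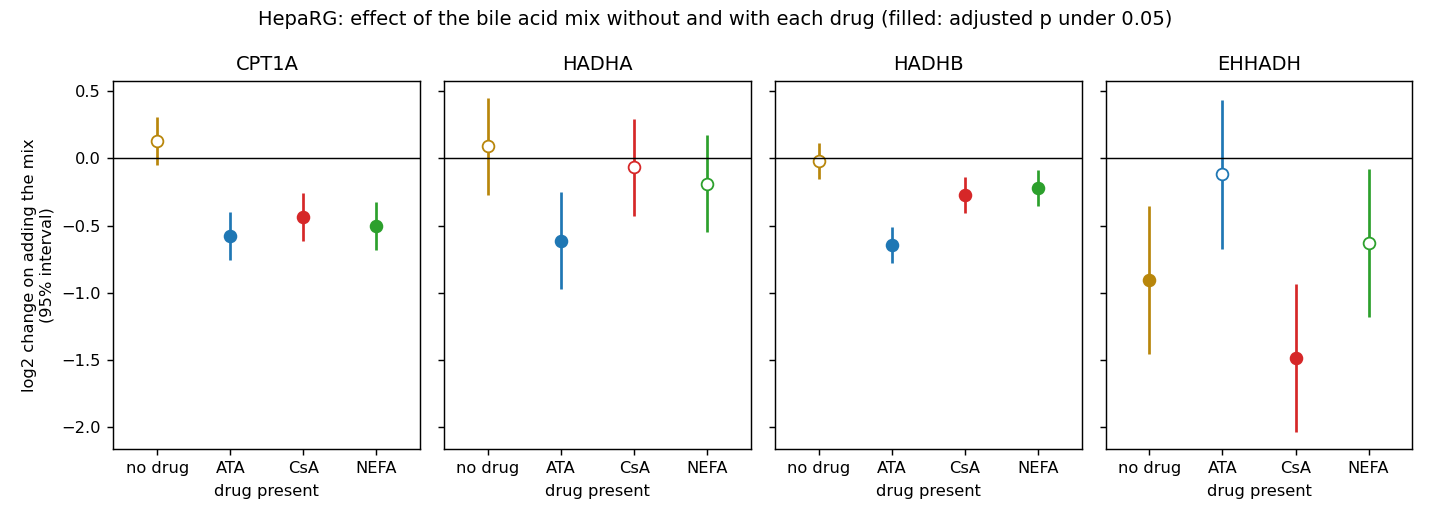
Log2 change on adding the bile acid mixture to HepaRG cells without a drug and with atazanavir (ATA), cyclosporin A (CsA) or nefazodone (NEFA), with 95% intervals from limma; filled points passed the test. For CPT1A the mixture's effect is 0.13 without a drug and -0.44 to -0.58 with one, and for HADHB it is -0.02 without a drug and -0.65 with atazanavir.

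In cells loaded with the mixture, the drugs were also compared with the mixture alone. Atazanavir lowered 4 of the 8 genes there, where 28.5% of all genes passed (15.1% higher, 13.3% lower): EHHADH by 1.55, CPT2 by 0.62, HADHB by 0.62 and HADHA by 0.55. HADHA's call (limma adjusted p = 0.0213) was lost without replicate 2 (0.0618) or 3 (0.0539) of atazanavir with the mixture, or without mixture replicate 2 (0.0618) or 3 (0.0566). CPT1A was 0.21 higher and did not pass (0.0816); without replicate 2 of atazanavir with the mixture it was 0.31 higher (0.00722). ACADM differed by -0.43 and did not pass (0.066, and 0.0325 with the replicate block). Cyclosporin A lowered 7, where 51.1% passed (25.7% higher, 25.5% lower), from 0.29 for ACADVL to 2.69 for EHHADH. The remaining gene, CYP4A11, was 0.36 lower (0.0681) and passed without replicate 1 of cyclosporin A with the mixture, at -0.57 (0.00279). Its second probe set lay below 4.27 on all arrays with a drug and the mixture, at least 4.43-fold below the mean with the mixture alone.

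Nefazodone lowered 7 in loaded cells, where 49.6% passed (24.8% each way), from 0.21 for CPT1A to 2.51 for EHHADH, and ACADVL did not differ beyond its error (0.02, SE 0.08). CPT1A's fall (limma adjusted p = 0.0493, and 0.0523 with the replicate block) was the least secure. It was lost on leaving out any 1 of 5 of the 6 arrays compared (0.0572 to 0.149), and other CPT1A probe sets were 0.83 (adjusted p over probe sets 3.4e-07) and 0.45 (0.00573) higher, where 39.2% of probe sets passed. HADHA's fall of 0.51 (0.0191) was -0.24 (0.211) without replicate 1 of nefazodone with the mixture, the array at 8.82, and was also lost without mixture replicate 2 (0.0533). On the other HADHA probe sets the differences were smaller. Their means were 9.26 and 9.34 with nefazodone and the mixture, against 9.48 and 9.43 with the mixture alone. The lowest arrays with nefazodone and the mixture there were at 9.20 and 9.30. CYP4A11's fall of 0.46 (0.0189) was lost without mixture replicate 3 (0.0712) or replicate 2 of nefazodone with the mixture (0.0797).

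Setting arrays to one median raised the changes in loaded cells by 0.257 with cyclosporin A and 0.196 with nefazodone, and moved the share of rises from 50.2% to 73.5% and from 49.9% to 69.1%. Relative to that shift 6 genes stayed lower with cyclosporin A, with ACADVL lost at -0.03. With nefazodone 4 were lower and ACADVL was higher by 0.22 (adjusted p = 0.0143). EHHADH remained 2.43 and 2.31 lower and CPT2 0.72 and 0.74 lower.

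The wider pathway was followed through 49 further genes with a probe set of their own, of 59 listed: fatty acid activation, other mitochondrial and peroxisomal oxidation enzymes, ketone body synthesis, omega-oxidation, and PPAR-alpha with its partners and other targets. With atazanavir 28 fell and 10 rose, beside 13.2% of all genes lower and 22.2% higher. With cyclosporin A 34 fell and 7 rose, beside 18.5% and 22.2%. With nefazodone 32 fell and 8 rose, beside 20.6% and 25%, and with the mixture 8 fell and 2 rose, beside 3.37% and 6.78%. Their median changes were -0.42, -0.52, -0.61 and -0.16, beside 0.02, 0.04, 0.01 and 0.01 over all genes. The same shares of all genes stand beside the smaller groups that follow. Of 12 other mitochondrial beta-oxidation genes, 9, 10 and 9 fell with atazanavir, cyclosporin A and nefazodone and 2 with the mixture, and 1 rose, with nefazodone. Of 8 peroxisomal genes, 5, 6 and 6 fell with the drugs, and 1 rose, with cyclosporin A. Both measured genes of ketone body synthesis fell with atazanavir, nefazodone and the mixture. The 15 genes of the receptor's list were mixed, with 8 higher and 4 lower with atazanavir, 5 and 7 with cyclosporin A, and 6 and 8 with nefazodone.

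The receptor itself, PPARA, fell by 1.02 with atazanavir (SE 0.08, limma adjusted p = 3.3e-09), by 0.56 with nefazodone (4.62e-06) and by 0.29 with cyclosporin A (0.006), and did not pass with the mixture (-0.02, 0.941). Over the mean of its probe sets the nefazodone and cyclosporin A falls of PPARA were -0.14 (0.164) and -0.13 (0.191). Its known targets went both ways. FABP1 and VNN1 here, and PLIN2 below, were picked by size of change within each comparison. Their changes in comparisons where they were not among the 3 largest are not listed. FABP1, the liver fatty acid binding protein, fell by 6.67 with atazanavir, fell by 3.50 with cyclosporin A and fell by 7.33 with nefazodone (SE 0.63 each), from a control mean of 12.1 to means of 5.47, 8.64 and 4.81. VNN1, a pantetheinase, fell by 2.68 with the mixture, 2.56 with atazanavir and 2.35 with nefazodone.

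Other targets rose. PLIN2, which coats lipid droplets, rose by 1.42 with atazanavir, by 2.04 with nefazodone and by 0.62 with the mixture. PDK4, which restrains glucose oxidation, rose by 2.37 with atazanavir (adjusted p = 3.07e-08) and fell by 2.15 with cyclosporin A and by 1.00 with the mixture (0.00517). With nefazodone PDK4 differed by -0.43 and did not pass (0.128), while its most variable probe set was 1.23 higher (0.0154). The mixture's PDK4 fall was lost over the mean of its probe sets (-0.72, 0.0608). ANGPTL4, a lipoprotein lipase inhibitor, rose by 1.43 with atazanavir and fell by 0.61 with nefazodone (0.013), a fall lost without control replicate 1 (0.0518) or nefazodone replicate 3 (0.0921). FGF21, a hepatokine, rose by 2.33 with nefazodone and by 0.59 with cyclosporin A, from a control mean of 3.37 that lies in the range of the dimmest genes. The cyclosporin A mean, 3.95, lies in that range too, and the nefazodone mean was 5.70.

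The genes named next were picked in the same way, by size of change within each comparison. Each was among its 3 largest rises or falls that passed without overlap of the groups compared. Changes of these genes in other comparisons are not listed. CYP4F2, an omega-hydroxylase, fell by 3.72 with atazanavir. ACSL4, an acyl-CoA synthetase, fell by 1.96 with cyclosporin A and by 1.20 with the mixture. BDH1, which makes hydroxybutyrate, fell by 2.55 with nefazodone and by 1.33 with the mixture. SLC22A5, the carnitine importer, rose by 1.02 with cyclosporin A and by 0.39 with the mixture, and HILPDA, a lipid droplet protein, rose by 0.60 with cyclosporin A. ESRRA, a nuclear receptor of mitochondrial genes, rose by 1.46 with nefazodone.

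On adding the mixture to a drug, 14 of the 49 fell and 4 rose with atazanavir, beside 10.3% of all genes lower and 8.95% higher. With cyclosporin A 37 fell and none rose, beside 18.4% each way, and with nefazodone 17 fell and 4 rose, beside 7.92% and 7.55%. In the interactions 4 were lower and 7 higher for atazanavir, beside 7.29% and 5.07%. There 23 were lower and 1 higher for cyclosporin A, beside 15% and 10.9%, and 7 lower and 2 higher for nefazodone, beside 7.31% and 4.57%. In loaded cells 30 fell and 6 rose with atazanavir, beside 13.3% and 15.1%, 42 fell and 5 rose with cyclosporin A, beside 25.5% and 25.7%, and 32 fell and 7 rose with nefazodone, beside 24.8% each way.

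For the 6 genes whose group means spanned at least 1 unit, likeness to every other gene was measured as the mean absolute difference of their log2 changes against control over the 7 treated groups, which share the 3 control arrays. HADHB's nearest genes were CFAP418 (0.10) and HADHA (0.12), so that HADHA stood in rank 2 of all genes. CPT1A was nearest to LOC441666 (0.09) and DEAF1 (0.12), and the closest of its own set, ACADVL, was 0.41 away. CPT2 was nearest to TMOD1 (0.08) and OTOGL (0.08), and ACADM to SUCLG2 (0.10), a subunit of succinyl-CoA ligase, and NIPSNAP3A (0.12). EHHADH was nearest to GATM (0.23), the first enzyme of creatine synthesis, and CIDEB (0.24), a lipid droplet protein, while its nearest fellow, ACADM, was 1.58 away. CYP4A11, on its brightest probe set, was nearest to CASP16P (0.07) and CYP2A7 (0.08). A small distance describes these 24 arrays and gives no test.

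In mouse liver 6 weeks after ligation, Cpt2, Acadvl and Cyp4a14 were lower than after sham surgery, and the other 5 genes with a probe set of their own did not pass. These 3 of 8 stand beside 41.6% of all genes passing (20.5% higher, 21.1% lower), and the median change of the 8 was -0.22 against -0.05 over all genes. Setting arrays to one median lowered all changes by 0.118 and moved the share of rises from 49.3% to 26.8%. Relative to that shift Hadha (-0.32, limma adjusted p = 0.0134) and Hadhb (-0.35, 0.0142) were lower too, making 5.

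The livers differed in their cell markers. The mean of 7 hepatocyte markers was 13.9 to 14.0 in both groups and none of the 7 passed. Biliary markers averaged 6.26 to 7.63 after ligation and 5.52 to 6.37 after sham surgery, macrophage markers 9.05 to 10.2 against 7.45 to 7.96, and stellate cell and fibroblast markers 8.10 to 8.58 against 6.66 to 7.75. Endothelial markers were at 7.85 to 8.46 against 8.23 to 8.63. Of these lists 2 of 5 biliary, 4 of 6 macrophage and 3 of 6 stellate markers rose and 3 of 4 endothelial markers fell, and their part in the results below was not tested. Sham replicate 2 carried intestinal epithelium markers at 10.5, against 5.69 to 5.85 on the other sham arrays, and ligated replicate 1 carried neutrophil markers at 9.03, against 6.02 to 6.47 in its group. Results are therefore also given without these 2 livers.

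Cpt2 was at 10.95, 10.58, 10.86, 10.95, 11.16 and 11.11 in sham livers, with a median of 10.9, and at 10.05, 10.50, 10.27, 10.12, 10.34 and 10.28 in ligated livers, with a median of 10.3. No ligated liver reached the lowest sham liver, which was replicate 2. The fall was 0.67 (SE 0.10, 1.60-fold lower, limma adjusted p = 0.000179), and without the 2 livers it was 0.70 (4.63e-05). Its other probe set fell by 0.49, from a mean of 5.06 to 4.57. Both means lie under 5.40, the upper bound of the dimmest genes in mouse.

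Acadvl was at 11.72 to 12.37 in sham livers (median 12.1) and at 11.57 to 11.73 in ligated livers (median 11.6). The groups overlapped only through sham replicate 2, the lowest sham liver, at 11.72. Acadvl fell by 0.40 (SE 0.09, 1.32-fold lower, limma adjusted p = 0.00302), and by 0.45 without the 2 livers (0.000728).

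Hadha was at 10.91 to 11.48 in sham livers and at 10.78 to 11.03 in ligated ones, and Hadhb at 11.43 to 11.96 and at 11.19 to 11.56, with overlap in both. The differences were -0.21 (SE 0.09, limma adjusted p = 0.0705) and -0.23 (SE 0.09, 0.0591). Without sham replicate 2 both passed, at -0.25 (0.0284) and -0.27 (0.0309). Hadhb's other probe sets were 0.31 and 0.21 lower, with adjusted p over probe sets of 0.0484 and 0.0403. The probe set that gave 0.21 was dim, with means of 5.10 in sham livers and 4.90 in ligated ones. Both means lie under 5.40, the upper bound of the dimmest genes in mouse. Cpt1a (10.33 to 11.36 in sham livers, 10.93 to 11.42 in ligated ones) and Acadm (12.44 to 12.76 and 12.41 to 12.81) overlapped almost wholly, with differences of 0.13 (95% interval -0.20 to 0.46) and 0.05 (interval -0.13 to 0.23).

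Ehhadh was at 11.21, 10.53, 11.22, 10.81, 10.87 and 11.44 in sham livers and at 10.96, 11.48, 11.32, 11.44, 11.36 and 11.60 in ligated ones. Ligated replicate 1 was the lowest of its group, sham replicate 2 the lowest of all, and the groups overlapped. Ehhadh was 0.35 higher (SE 0.15, 95% interval 0.03 to 0.66, limma adjusted p = 0.0709). It passed without ligated replicate 1 (0.43, 0.0288), without sham replicate 6 (0.43, 0.0276) and without the 2 livers named above (0.33, 0.0411). In HepaRG cells the bile acid mixture gave a change of -0.91 for EHHADH, and the contrast between species was not tested.

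The CYP4A genes of the mouse varied most between sham livers. Cyp4a14, an inducible omega-hydroxylase, was at 6.78, 5.53, 8.28, 6.52, 10.76 and 11.47 in sham livers, a range of nearly 6 units. In ligated livers it was at 5.07, 5.57, 6.05, 5.99, 5.42 and 5.68, close to the upper bound of the dimmest 1 in 3 genes, 5.40. Only sham replicate 2 lay within the ligated range. Cyp4a14 fell by 2.59 (SE 0.85, 6.04-fold lower, limma adjusted p = 0.0255), and by 3.02 without the 2 livers (0.0116). The call was lost without sham replicate 5 (-2.09, 0.0537) and with a trended, robust prior (0.0564).

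The probe set shared by Cyp4a31 and Cyp4a10 was at 9.03, 7.49, 10.16, 8.52, 11.02 and 10.63 in sham livers and at 7.26, 7.58, 7.56, 7.93, 7.51 and 7.79 in ligated ones. Sham replicates 3, 5 and 6 were the highest on it, as they were for Cyp4a14, and sham replicate 2 the lowest. It fell by 1.87 (SE 0.47, 3.66-fold lower, limma adjusted p over 45037 probe sets = 0.00814), where 33.6% of probe sets passed.

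**Figure D4:**
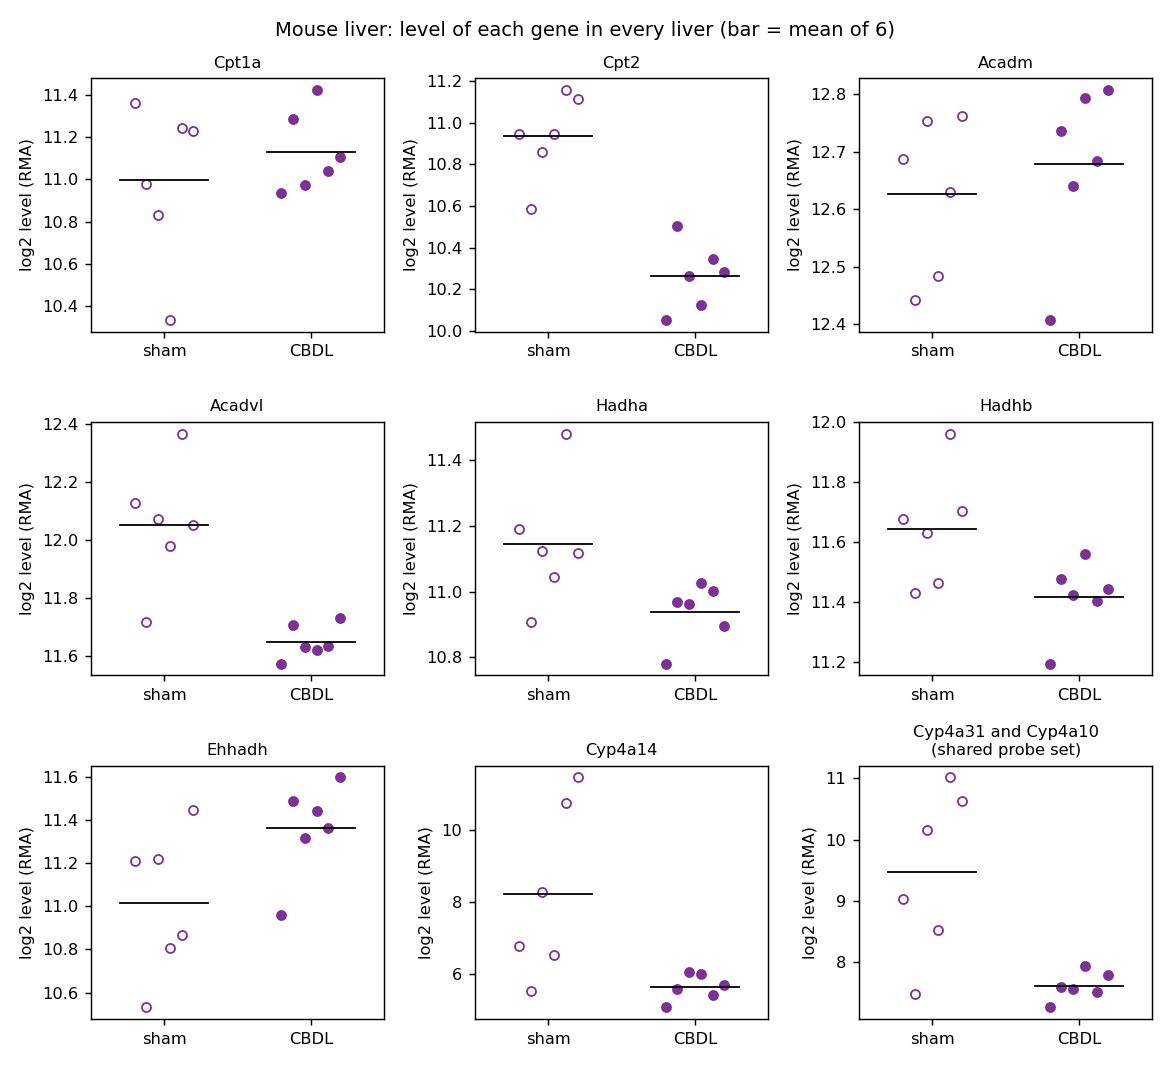
Log2 level of each gene in each of the 12 mouse livers, sham-operated (open) and bile duct-ligated (CBDL, filled), with the mean of 6 as a bar; each panel has its own axis. Cpt2 separates the groups (10.58 or more in sham livers, 10.50 or less in ligated ones), whereas Cyp4a14 spreads from 5.53 to 11.47 among the sham livers and from 5.07 to 6.05 among the ligated ones.

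Of the wider pathway, 54 further mouse genes of 62 listed had a probe set of their own, and 27 were lower and 6 higher after ligation, with a median change of -0.24. Over all genes 21.1% were lower and 20.5% higher, with a median of -0.05, and these shares stand beside the smaller groups too. Of 14 other mitochondrial beta-oxidation genes 9 fell and 1 rose, and of 10 peroxisomal genes 5 fell and none rose. Both measured ketone body genes and 3 of 4 omega-oxidation genes fell. In the list of the receptor and its targets 5 of 15 fell and 2 rose. With arrays set to one median 35 were lower and 5 higher, and without the 2 livers 28 passed.

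Ppara fell by 0.55 (SE 0.15, limma adjusted p = 0.011). The genes from Cyp4f14 to Hilpda were picked by size of change. Cyp4f14, an omega-hydroxylase, fell by 0.88 (1.84e-05), Acat1, the mitochondrial acetoacetyl-CoA thiolase, by 0.70 (2.33e-05), and Pex11a, which acts in peroxisome division, by 0.53 (0.000526). Vnn1 rose by 1.10 (3.05e-05), Acsl3, an acyl-CoA synthetase, by 0.91 (0.000247) and Hilpda by 0.38 (0.00128). Fgf21 fell by 1.11 (SE 0.42, adjusted p = 0.0458), a call lost without the 2 livers (-1.03, 0.0716), on leaving out any 1 of 7 livers (0.0582 to 0.0944), and with a trended, robust prior (0.0818). Angptl4 (-0.24, 0.671) and Pdk4 (0.75, 0.166) did not pass.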

How the data were processed

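RNA was measured on Affymetrix 3′ arrays in 24 HepaRG and 12 mouse liver samples. The authors deposited log2 values, 1 for each probe set and array. Per the submitters' processing notes they were made with RMA (robust multi-array average), whose version is not given in the sources used here. RMA quantile-normalizes arrays, so that a shift of all genes together is removed and low values sit on a background; scan files were not analysed here, and the number of arrays limits the precision. Array medians were 4.24 to 4.38 in HepaRG and 5.38 to 5.49 in mouse. The tables carry no detection call, and the dimmest 1 in 3 genes had mean levels up to 4.27 and 5.40.

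Probe sets were named from the platform's annotation: 41091 of 54675 human and 34945 of 45101 mouse probe sets had 1 symbol, 1801 and 932 had several, 11721 and 9160 had none in the table used, and 62 and 64 were controls. For each gene the single-symbol probe set whose mean over its platform's arrays was highest was used, without a filter on dim genes. The tests were limma 3.58.1 (lmFit, eBayes) in R 4.3.3, 2-sided, with group means as the model: 1 fit of the 24 HepaRG arrays with 16 residual degrees of freedom (20.9 after moderation) and 1 of the 12 mouse arrays with 10 (13.9). The procedure was checked on simulated data with known changes. Levels on other probe sets came from a fit of all 54613 human and 45037 mouse probe sets that are not controls.

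Same-numbered HepaRG arrays deviated together in every pair (correlations over genes of 0.11 to 0.29) for the mixture and nefazodone against control, for nefazodone with the mixture against nefazodone, and for cyclosporin A with the mixture against the mixture. The labels do not tie the numbers to cell batches. The numbers were taken to pair the arrays in these comparisons, the fits reported are without the block, and calls that the block changes are given beside their results. Atazanavir against control was also positive in every pair, at 0.07, 0.22 and 0.15, and was not counted among them. Every other HepaRG comparison between groups held a negative correlation, and the block is given there only as an alternative. The numbers of the mouse livers stand for different animals.

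The 8 human and 9 mouse genes, the wider pathway and the marker lists were chosen with earlier results of these data known. Genes of the wider pathway named in the text are Ppara, Fgf21, Angptl4 and Pdk4, and up to 3 largest rises and 3 largest falls in each comparison against control or sham. These rises and falls were taken among genes that passed and whose groups did not overlap, so that larger changes with overlap are not among them. The alternatives tried were quantile normalization, median centring, other choices of probe set, leaving out the dimmest genes, a trended and robust prior, fits of the compared groups alone, the replicate block and leaving out each array. Promoter windows were from RefSeq, GRCh38.p14; no such table was used for mouse.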

Additional observations from a re-analysis of the deposited data

Results flagged for a closer look

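The effect of the bile acid mixture on CPT1A and HADHB differed with and without a drug, by a test of the difference itself on the brightest probe set of each gene. For CPT1A this interaction was -0.71 with atazanavir, -0.57 with cyclosporin A and -0.63 with nefazodone, each in the direction of a lower level where drug and mixture were combined. For HADHB it was -0.63 with atazanavir and -0.25 with cyclosporin A. The HADHB interaction with cyclosporin A no longer passed with the replicate number as a block (limma adjusted p = 0.056). It was also lost on leaving out any 1 of 9 of its 12 arrays. Setting arrays to one median raised every cyclosporin A interaction by 0.214, nearly the size of this one. For CYP4A11 no interaction passed on its brightest probe set (limma adjusted p = 0.102, 0.18 and 0.252 in the order atazanavir, cyclosporin A, nefazodone). On the second CYP4A11 probe set the values were 2.62 with atazanavir, 1.62 with cyclosporin A and 2.20 with nefazodone. On that probe set all arrays with a drug, with or without the mixture, lay between 2.77 and 3.90, below the 4.27 that bounds the dimmest 1 in 3 genes, so these values rest on the level without a drug and are no measure of a difference in the mixture's effect. In mouse, the levels of the 8 genes and of the probe set shared by Cyp4a31 and Cyp4a10 made 18 sets of 6 livers, sham or ligated, and in none of these did a single liver stand apart by Dixon's criterion at the 95% level.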

How the results depend on the processing

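Of the 888 single-gene changes under the alternatives that keep all arrays and were planned, 793 kept their direction and their side of the threshold, 45 passed it only in the alternative, 22 no longer passed it and 28 turned their sign. The cause of these changes was not tested. Leaving out dim genes, the other prior, fits of the compared groups alone and the replicate block cannot alter the size or sign of a change. Genes with 1 probe set keep their value under the choices of probe set. Signs turned 7 times over the mean of probe sets, 8 times with arrays set to one median, 6 times on the most variable probe set and 7 times after quantile normalization. Counts of the 8 genes (in mouse, the 8 with a probe set of their own) that passed moved as follows. With arrays set to one median 5 passed after ligation, against 3. Over the mean of all probe sets of a gene 4 passed in the atazanavir interaction, against 2, and 2 in the nefazodone interaction, against 1. On the probe set with the largest variance 2 passed in the nefazodone interaction and 1 in the cyclosporin A interaction, against 2, and after quantile normalization 2 in the nefazodone interaction. A fit of the compared groups alone gave 1 in the cyclosporin A interaction, and a trended, robust prior gave 1 for the mixture, against 2. With the replicate block, 4 passed for the mixture added to nefazodone, against 2, and 1 in the cyclosporin A interaction. The block moved the calls given beside their results and no other call of these genes. Without 1 array, the counts lay between 0 and 2 for the mixture, 1 and 3 for the mixture added to nefazodone, 1 and 3 in the cyclosporin A interaction and 2 and 5 after ligation, and no count of the wider pathway list moved by more than 1.5 times. Over the mean of a gene's probe sets the sign turned for Cpt1a (-0.021) after ligation, CPT1A (0.19) in loaded cells with nefazodone, CPT2 (-0.11) in the cyclosporin A interaction, CPT2 (-0.028) in the nefazodone interaction, CPT2 (-0.050) for the mixture added to nefazodone, CYP4A11 (0.19) for the mixture added to atazanavir, HADHA (-0.020) and PPARA (0.11) with the mixture, and PDK4 (0.27) with nefazodone. With arrays set to one median it turned for Acadm (-0.066) after ligation, ACADVL (-0.028) for the mixture added to atazanavir, ACADVL (0.027) in loaded cells with atazanavir, ACADVL (0.10) with nefazodone, CPT1A (0.033) with cyclosporin A, CPT2 (0.14) and HADHA (0.10) for the mixture added to cyclosporin A, HADHA (0.058) in the cyclosporin A interaction. On the probe set with the largest variance it turned for Cpt1a (-0.10) after ligation, CPT1A (0.037) with cyclosporin A, CPT1A (0.0012) for the mixture added to cyclosporin A, CPT1A (0.83) in loaded cells with nefazodone, CYP4A11 (0.43) for the mixture added to atazanavir, CYP4A11 (0.014) for the mixture added to nefazodone, PDK4 (1.23) with nefazodone. After quantile normalization it turned for ACADM (-0.020) and ACADVL (-0.047) in the cyclosporin A interaction, ACADM (-0.080) and ACADVL (-0.030) in the nefazodone interaction, ACADVL (-0.10) in loaded cells with nefazodone, CPT2 (-0.0082) for the mixture added to nefazodone, FGF21 (0.0038) and HADHB (0.025) with the mixture. On single other probe sets, an alternative chosen after seeing the data, it turned for CPT1A (-0.28) in loaded cells with atazanavir, Cpt1a (-0.10) and Cpt1a (-0.093) after ligation, CPT1A (0.037) with cyclosporin A, CPT1A (0.0012) for the mixture added to cyclosporin A, CPT1A (0.83) and CPT1A (0.45) in loaded cells with nefazodone. On these it also turned for CPT2 (-0.29) in the cyclosporin A interaction, CPT2 (-0.14) and HADHA (0.073) in the nefazodone interaction, CPT2 (0.041), HADHA (-0.041) and HADHA (-0.11) with the mixture, CPT2 (-0.10) and CYP4A11 (0.014) for the mixture added to nefazodone, CYP4A11 (0.43) for the mixture added to atazanavir. On leaving out 1 array, changes lay on both sides of 0 for ACADM (-0.24 to 0.24), ACADVL (-0.019 to 0.072) and CPT2 (-0.13 to 0.18) in the cyclosporin A interaction, ACADM (-0.10 to 0.12) and ACADVL (-0.013 to 0.080) in the nefazodone interaction, ACADVL (-0.061 to 0.054), CYP4A11 (-0.11 to 0.023) and EHHADH (-0.29 to 0.081) for the mixture added to atazanavir, ACADVL (-0.049 to 0.042) in loaded cells with atazanavir, ACADVL (-0.047 to 0.021) with nefazodone, ACADVL (-0.022 to 0.071) in loaded cells with nefazodone. They also did so for Angptl4 (-0.53 to 0.0077) and Cpt1a (-0.0011 to 0.20) after ligation, ANGPTL4 (-0.26 to 0.0099), FGF21 (-0.077 to 0.10), HADHB (-0.043 to 0.0095) and PPARA (-0.079 to 0.045) with the mixture, CPT1A (-0.039 to 0.019) with cyclosporin A, CPT2 (-0.22 to 0.094) and HADHA (-0.29 to 0.071) for the mixture added to cyclosporin A, CPT2 (-0.073 to 0.050) and HADHA (-0.33 to 0.082) for the mixture added to nefazodone, HADHB (-0.024 to 0.036) with atazanavir. Signal over background and the number of arrays limit the precision of each value, and depth in reads does not apply to arrays.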
